A study of Homo sapiens with 6 samples.

Results

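The mitochondrially encoded subunits of respiratory complex I (MT-ND1, MT-ND2, MT-ND3, MT-ND4, MT-ND4L, MT-ND5 and MT-ND6) and of complex IV (MT-CO1, MT-CO2 and MT-CO3) were followed in PC-3 cells, a human prostate cancer cell line, after knockdown of MTA1. MTA1 belongs to NuRD, a nuclear complex that moves nucleosomes and removes acetyl groups from histones. The genes were taken by symbol, and all 10 were found among the 30651 genes of the count table. The 3 libraries labelled MTA1 carry the column prefix shMTA1, and the 3 labelled Ctrl carry the prefix NC. Both groups are PC-3 cells in DMEM/F12 with serum, and the labels name lentivirus and the selection of stable clones for all 6 samples. The number of hairpins and of clones is not given. Nothing says that the libraries of a group came from separate cultures, so p-values rest on the spread between libraries that may be technical repeats.

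Human mitochondrial DNA is a small circle that is transcribed along nearly its whole length from a heavy-strand promoter and a light-strand promoter. The long precursor RNAs are cut, mostly at the tRNAs that separate the coding genes, into single mRNAs, whose levels then depend on how each is processed, stabilised and degraded. All members other than MT-ND6 come from the heavy-strand promoter, and MT-ND6 is the sole mRNA made from the light-strand promoter. Complex I passes electrons from NADH to ubiquinone and complex IV passes them from cytochrome c to oxygen, and each combines these core subunits with many that are encoded in the nucleus.

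The difference between the strands can be read from the mRNAs themselves. In the GENCODE v29 annotation (GRCh38), MT-ND6 lies on the minus strand of the mitochondrial chromosome, directly after MT-ND5 on the plus strand. The opening 60 bases of each are shown because MT-ND6 is the member that the strand sets apart. Guanines are in capitals, and each sequence runs in the direction of its mRNA:
MT-ND6, chrM:14614-14673, minus strand: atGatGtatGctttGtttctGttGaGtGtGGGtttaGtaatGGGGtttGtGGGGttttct
MT-ND5, chrM:12337-12396, plus strand: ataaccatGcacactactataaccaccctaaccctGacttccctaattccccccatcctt
The MT-ND6 stretch holds 21 guanines and the MT-ND5 stretch 2. Over its whole length MT-ND6 is 35.6% guanine, whereas the 9 heavy-strand members range between 9.50% and 16.2%.

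The libraries held between 29909172 and 33849262 counts. The targeted gene, MTA1, had 528, 572 and 519 counts in the MTA1 libraries and 1185, 1331 and 1352 counts in the Ctrl libraries, or 43.4% of the Ctrl level by edgeR's fit (log2 fold change -1.21 ± 0.054 SE, adjusted p = 4.3e-13). All 6 markers examined for PC-3 and epithelial cells were listed: KRT8, KRT18, KRT19, KRT7, EPCAM and the mesenchymal marker VIM. They summed to between 5283 and 5715 counts per 1000000 counts (CPM) in the MTA1 libraries and between 5562 and 6083 CPM in the Ctrl libraries. Of them, 3 were called higher and 2 lower. Leukocyte markers summed to between 1.09 and 1.54 CPM in the MTA1 libraries and between 1.48 and 2.07 CPM in the Ctrl libraries. The markers of androgen-responsive luminal cells, of which 4 of 6 were listed, summed to between 10.2 and 11.2 CPM in the MTA1 libraries and between 8.01 and 8.48 CPM in the Ctrl libraries. The 7 fibroblast markers, all listed, summed to between 116.8 and 117.1 CPM in the MTA1 libraries and between 77.2 and 85.6 CPM in the Ctrl libraries, with 1 called higher and 2 lower. These calls stand against 58.1% of all tested genes called (29.5% higher and 28.6% lower). The part of these marker differences in the results was not tested.

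Of the 10 members, 7 were higher in the MTA1 libraries and 0 were lower by the quasi-likelihood test of edgeR, with a threshold of 0.05 on the adjusted p. Over all 15423 genes tested, 58.1% were called in either direction, 29.5% as higher and 28.6% as lower. The 7 comprised 5 of the 7 complex I genes and 2 of the 3 complex IV genes, and the members that did not pass were MT-ND3, MT-ND6 and MT-CO2. The median log2 fold change of the members was 0.44, against 0.0015 over all tested genes. The values of the same 7 members did not overlap between the groups, a property shared by 62.7% of all tested genes (32.1% with the MTA1 libraries higher and 30.6% with them lower). In bulk RNA, more cells that carry a transcript and more of it per cell cannot be told apart. Levels per library are in CPM scaled with TMM factors, which correct for differences in RNA composition. The SEs given below depend on the model. For MT-ND6 the SE was 0.14 by edgeR and 0.27 by DESeq2, an alternative fit. For MT-ND4 it was 0.077 and 0.15, and for MT-ND1 0.063 and 0.11. MT-ND2, MT-ND4L and MT-ND5 also had larger SEs by DESeq2. MT-CO2, MT-CO3 and MT-ND3 had similar ones, and MT-CO1 a smaller one (0.045 and 0.041). An edgeR SE should thus not be read as the spread of that gene's libraries alone.

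**Figure D1:**
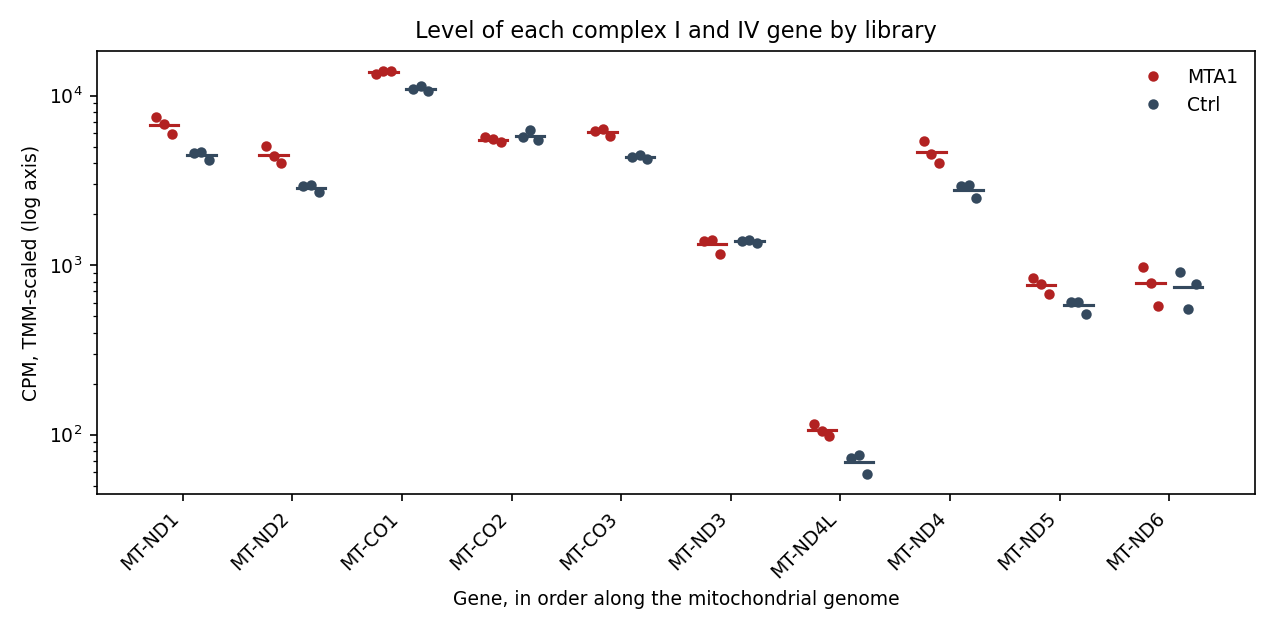
TMM-scaled CPM on a log axis for the 10 genes in map order, with the MTA1 libraries in red on the left of each pair and the Ctrl libraries in dark blue on the right. Points are libraries in the order 1, 2, 3 and lines are group means (n = 3 each), and the groups overlap for MT-CO2, MT-ND3 and MT-ND6.

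Among the complex I genes, MT-ND1 encodes the subunit at the junction with the peripheral arm, beside the ubiquinone-binding site. It had 7515, 6770.5 and 5984 CPM in MTA1 libraries 1, 2 and 3, against 4618, 4628 and 4195 CPM in Ctrl libraries 1, 2 and 3. Every MTA1 library stood above every Ctrl library, with the MTA1 libraries spread more widely. The log2 fold change was 0.59 ± 0.063 (SE, edgeR adjusted p = 9.8e-08).

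MT-ND2, MT-ND4 and MT-ND5 encode the antiporter-like subunits of the membrane arm, through which protons are pumped. MT-ND2 had 5021, 4404 and 4003 CPM in the MTA1 libraries and 2929, 2981 and 2690.3 CPM in the Ctrl libraries. MT-ND4 had 5369.7, 4551 and 4022 CPM in the MTA1 libraries and 2927, 2964 and 2484 CPM in the Ctrl libraries. Neither gene's groups overlapped, and in both genes library MTA1_3 was the lowest of its group and library Ctrl_3 the lowest of its own. By edgeR the log2 fold changes were 0.64 ± 0.062 for MT-ND2 (adjusted p = 2.8e-08) and 0.74 ± 0.077 for MT-ND4 (adjusted p = 9.1e-08), the highest among the members. MT-ND5 rose less, with 836.5, 771.3 and 674.5 CPM in the MTA1 libraries and 610.6, 608.9 and 516.1 CPM in the Ctrl libraries. Its groups were separate, and its log2 fold change was 0.40 ± 0.066 (edgeR adjusted p = 3.6e-05).

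MT-ND4L encodes a small membrane-arm subunit and shares a bicistronic mRNA with MT-ND4. The reading frames of these genes share 7 bases. As the counter is not given, a read crossing them could be counted for either gene or for neither. The end of MT-ND4L and the start of MT-ND4 are shown, with the shared bases in capitals:
MT-ND4L, last 40 bases, chrM:10727-10766, plus strand: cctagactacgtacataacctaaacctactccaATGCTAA
MT-ND4, opening 40 bases, chrM:10760-10799, plus strand: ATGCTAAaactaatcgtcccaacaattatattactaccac
MT-ND4L had 115.3, 105.2 and 98.8 CPM in the MTA1 libraries and 73.2, 75.8 and 58.5 CPM in the Ctrl libraries. The groups were separate, and the log2 fold change of 0.62 ± 0.072 (edgeR adjusted p = 3.3e-07) lay near that of MT-ND4. The counts of MT-ND4L were 2.15%, 2.31% and 2.46% of those of MT-ND4 in the MTA1 libraries and 2.50%, 2.56% and 2.36% in the Ctrl libraries. The ranges of this ratio overlapped, and its mean log2 difference of -0.10 gave p = 0.2 in a 2-sided exact permutation test over the 20 splits of 3 against 3 libraries, a design that cannot give less than 0.1.

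MT-ND3, a small subunit at the junction with the peripheral arm, and MT-ND6, a membrane-arm subunit near it, did not pass. MT-ND3 had 1394, 1415 and 1171 CPM in the MTA1 libraries and 1387, 1403.5 and 1361 CPM in the Ctrl libraries. Libraries MTA1_1 and MTA1_2 lay among or just beside the Ctrl values, and MTA1_3 was the lowest of all 6. The log2 fold change was -0.06 ± 0.055 (edgeR adjusted p = 0.36), and its sign turned positive without library MTA1_3 (0.023), with library size as the sole scaling (0.0073) and on log2(FPKM + 0.1) values (0.0019). MT-ND6 had 981.1, 788.8 and 572.5 CPM in the MTA1 libraries and 905.5, 549.2 and 776.0 CPM in the Ctrl libraries. Its groups overlapped over nearly their whole range, and it varied more within each group than any other member, with a coefficient of variation of 26.2% in the MTA1 libraries and 24.3% in the Ctrl libraries. The log2 fold change was 0.07 ± 0.14 (edgeR adjusted p = 0.70), and its sign turned negative without library Ctrl_2 (-0.11) or without library MTA1_1 (-0.13). The spread between libraries set the limit here, since the 6 libraries together held 144180 MT-ND6 counts.

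Among the complex IV genes, MT-CO1 encodes the catalytic subunit with the haem and copper centre where oxygen is reduced. It had 13426, 14008 and 13914 CPM in the MTA1 libraries and 10940, 11390.0 and 10644 CPM in the Ctrl libraries. The groups were separate, each with a small spread, and the log2 fold change was 0.33 ± 0.045 (edgeR adjusted p = 3.0e-06), the lowest of the 7 members that rose. MT-CO3 encodes a core subunit without a metal centre. It had 6178.5, 6372 and 5764 CPM in the MTA1 libraries and 4376, 4489.7 and 4254 CPM in the Ctrl libraries, with no overlap and a log2 fold change of 0.48 ± 0.046 (edgeR adjusted p = 2.2e-08).

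MT-CO2 encodes the subunit whose copper centre takes electrons from cytochrome c. It had 5669, 5524 and 5313 CPM in the MTA1 libraries and 5721, 6241 and 5475 CPM in the Ctrl libraries. All 3 MTA1 libraries lay below Ctrl_1 and Ctrl_2, and 2 of them lay above Ctrl_3, so that the groups overlapped. The log2 fold change was -0.08 ± 0.049 (edgeR adjusted p = 0.18), and it stayed below 0 under all 18 alternatives, between -0.12 and -0.01, without passing the threshold in any of them.

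The libraries within a group kept much the same order across the members. Library MTA1_3 was the lowest of the MTA1 libraries for 9 of the 10 genes, the exception being MT-CO1, and MTA1_1 was the highest for 7. Among the Ctrl libraries, Ctrl_3 was the lowest for 9, the exception being MT-ND6, and Ctrl_2 was the highest for 8. Without MTA1_1, the library with the highest share of counts in the members, the log2 fold change of MT-ND4 was 0.62 and that of MT-ND1 was 0.51, both past the threshold. The same count of 7 members was called with each of the 6 libraries left out in turn.

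The neighbours on the map did not move by the same amount. MT-ND3 lies between MT-CO3 and MT-ND4L, and MT-CO2 follows MT-CO1, all on the same precursor RNA. MT-CO2 counts were 0.422, 0.394 and 0.382 of the MT-CO1 counts in the MTA1 libraries and 0.523, 0.548 and 0.514 in the Ctrl libraries. Every MTA1 library lay below every Ctrl library, a mean log2 difference of -0.40 with the smallest p that the exact permutation test allows (0.1, 2-sided). MT-ND3 counts were 0.260, 0.311 and 0.291 of the MT-ND4 counts in the MTA1 libraries and 0.474, 0.473 and 0.548 in the Ctrl libraries, again with no overlap, a mean log2 difference of -0.80 and the same smallest p of 0.1. Both pairs were picked with their values known. MT-ND4 is not a direct neighbour of MT-ND3, and its log2 fold change (0.74) was the highest of the members. The direct neighbours had smaller ones, 0.48 for MT-CO3 and 0.62 for MT-ND4L, against -0.06 for MT-ND3. Ratios within a library need no scaling between libraries.

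**Figure D2:**
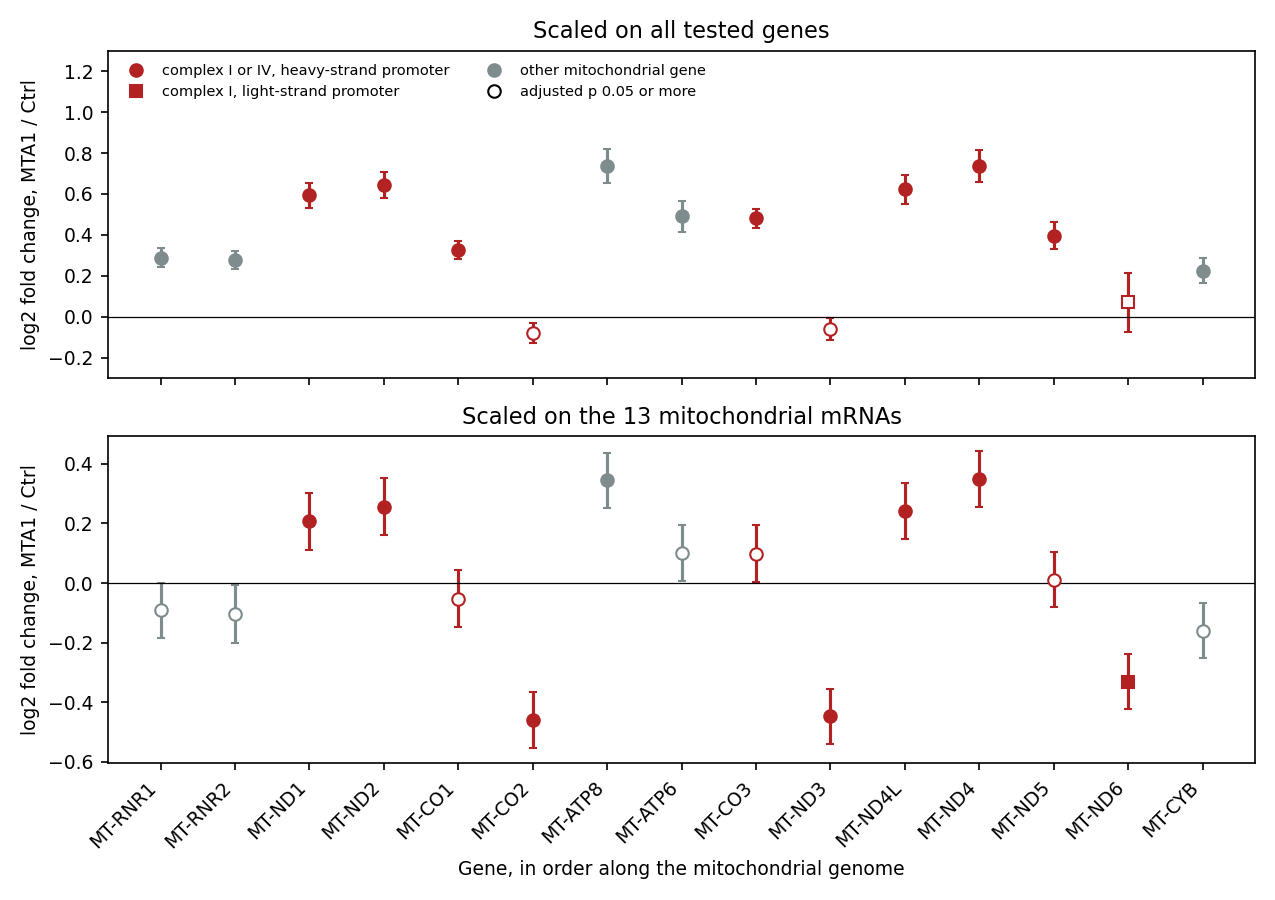
Log2 fold change of MTA1 over Ctrl with its SE (n = 3 libraries each) for the 13 mitochondrial mRNAs and 2 rRNAs in map order, scaled on all tested genes (upper panel) or on the summed counts of the 13 mRNAs (lower panel). Open symbols did not pass an adjusted p of 0.05, the square is MT-ND6, and MT-CO2, MT-ND3 and MT-ND6 lie below the other members in both panels.

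The members were therefore also compared with the sum of the 13 mitochondrial mRNAs as library size. On this scale 4 members were higher (MT-ND1, MT-ND2, MT-ND4 and MT-ND4L), 3 were lower (MT-CO2, MT-ND3 and MT-ND6) and 3 did not pass. Over all tested genes 64.1% were called, 7.15% as higher and 57.0% as lower, with a median log2 change of -0.38, against 0.055 for the members. This scaling shifts genes outside the sum down by the rise of the sum itself. These shares are thus no background rate for calls among the members. The members are themselves most of that sum, so a gain in some lowers the share of others. MT-CO2 made up 10.7%, 10.9% and 11.4% of mitochondrial mRNA counts in the MTA1 libraries and 14.7%, 15.7% and 15.0% in the Ctrl libraries (log2 change -0.46 ± 0.095 SE, edgeR adjusted p = 4.2e-06). MT-ND3 made up 2.63%, 2.79% and 2.52% in the MTA1 libraries and 3.56%, 3.54% and 3.73% in the Ctrl libraries (log2 change -0.45 ± 0.093 SE, edgeR adjusted p = 4.9e-06). For both genes the groups were well apart, and both calls held under all 11 alternatives.

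At the other end, MT-ND4 made up 10.1%, 8.98% and 8.66% in the MTA1 libraries and 7.51%, 7.48% and 6.81% in the Ctrl libraries, with no overlap (log2 change 0.35 ± 0.094 SE, edgeR adjusted p = 5.0e-04), and it kept its call under all 11 alternatives. The calls of MT-ND2 (0.26 ± 0.094), MT-ND4L (0.24 ± 0.093) and MT-ND1 (0.21 ± 0.095) were less firm, with edgeR adjusted p of 0.012, 0.016 and 0.046 in that order. MT-ND1 missed the threshold in 6 of 11 alternatives, and MT-ND2 and MT-ND4L in 2 each. Without Ctrl_1, 4 members passed instead of 7. MT-CO1 (-0.05), MT-CO3 (0.10) and MT-ND5 (0.01) did not pass.

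MT-ND6 is the exception among the genes called on this scale, since its groups overlapped. It made up 1.85%, 1.56% and 1.23% of mitochondrial mRNA counts in the MTA1 libraries and 2.32%, 1.39% and 2.13% in the Ctrl libraries. Library Ctrl_2 lay below both MTA1_1 and MTA1_2. The log2 change was -0.33 ± 0.092 (SE, edgeR adjusted p = 7.6e-04), where the SE was nearly the same for all members although MT-ND6 varied most. DESeq2 gave an adjusted p of 0.29 for the same change. By edgeR the log2 change was -0.18 without Ctrl_1 (adjusted p = 0.18), -0.19 without MTA1_3 (adjusted p = 0.030) and -0.53 without Ctrl_2 (adjusted p = 1.1e-06), so that its size rests on single libraries.

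Set against the heavy-strand members directly, MT-ND6 counts were 2.16%, 1.80% and 1.40% of the summed counts of the other 9 genes in the MTA1 libraries and 2.70%, 1.58% and 2.45% in the Ctrl libraries. The mean log2 difference was -0.32 with p = 0.4 (2-sided exact permutation test). From summed FPKM, which are scaled for gene length, the difference was -0.26 (exact permutation p = 0.4). A strand difference was thus not resolved from the spread between these 3 libraries a group. Strand is also a limit of the measurement, as the counting setting is not given in the sources used here: MT-ND6 reads cannot be told apart from heavy-strand RNA over the same bases if strand was ignored.

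The tRNA genes give another view of the strands, on far fewer counts and with the same unknown strand setting. The 8 tRNA genes of the light strand summed to 447, 445 and 427 unscaled counts in the MTA1 libraries and 568, 501 and 548 counts in the Ctrl libraries. The 14 of the heavy strand summed to 567, 607 and 539 counts in the MTA1 libraries and 392, 450 and 405 counts in the Ctrl libraries. The light-strand sum was 0.788, 0.733 and 0.792 of the heavy-strand sum in the MTA1 libraries and 1.45, 1.11 and 1.35 of it in the Ctrl libraries, without overlap. The lower light-strand sum came from MT-TQ, for glutamine, with 169, 169 and 171 counts in the MTA1 libraries and 284, 264 and 240 counts in the Ctrl libraries. Without MT-TQ, left out after its values were seen, the other 7 genes summed to 278, 276 and 256 counts in the MTA1 libraries and 284, 237 and 308 counts in the Ctrl libraries, and these groups overlapped. The ratio to the heavy-strand sum was then 0.490, 0.455 and 0.475 in the MTA1 libraries and 0.724, 0.527 and 0.760 in the Ctrl libraries, still without overlap. That gap lay in the heavy-strand sum, where MT-TF (0.84 ± 0.13 SE, edgeR adjusted p = 1.0e-05) and MT-TV (0.64 ± 0.11 SE, edgeR adjusted p = 6.2e-05) were higher. MT-TT, also of the heavy strand, did not pass (-0.13). The single light-strand tRNA genes did not all move one way: MT-TQ fell by 0.58 on the log2 scale (± 0.097 SE, edgeR adjusted p = 3.5e-05), and MT-TP, for proline, rose by 1.09 (± 0.21 SE, edgeR adjusted p = 2.1e-04). The tRNA genes named here were picked after their values were seen. Of the 10 tRNA genes with enough counts to test, 5 were higher and 1 was lower. The share called, 60%, was close to the 58.1% of all tested genes (29.5% higher and 28.6% lower).

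**Figure D3:**
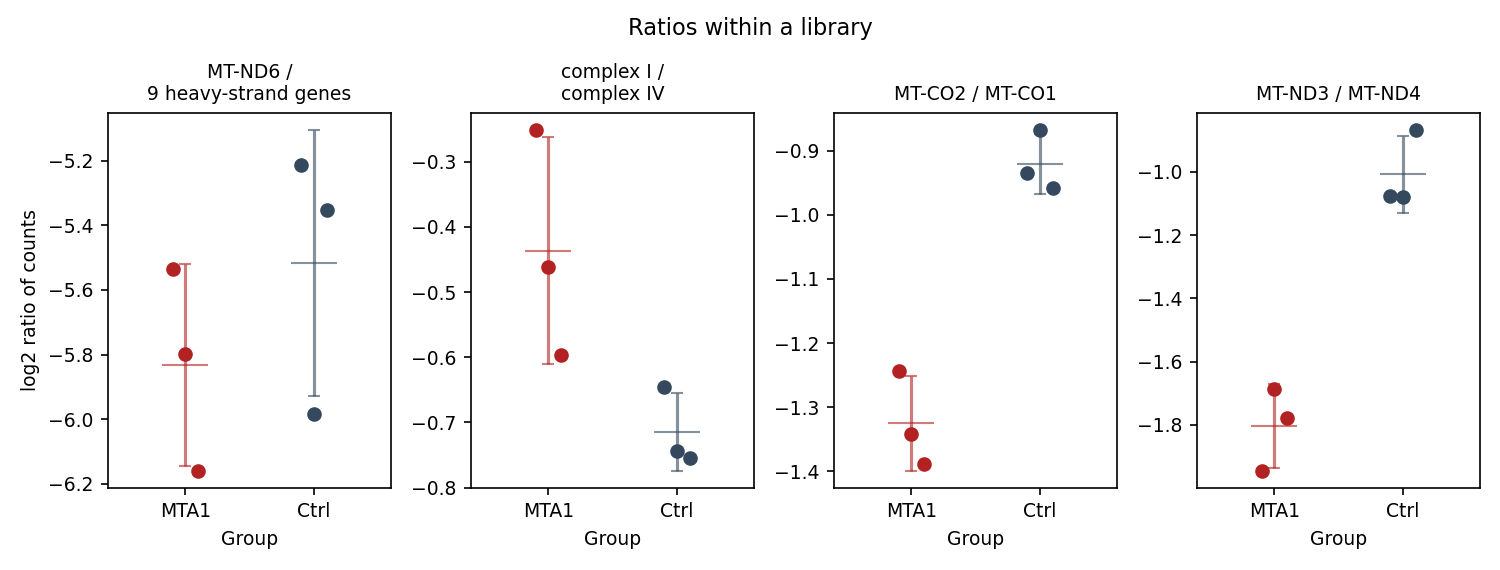
Log2 ratios of counts within each library, for MT-ND6 over the 9 heavy-strand members, the 7 complex I over the 3 complex IV genes, MT-CO2 over MT-CO1 and MT-ND3 over MT-ND4. Points are libraries 1, 2 and 3 with MTA1 left of Ctrl, and bars are mean ± SD (n = 3 each), and only the MT-ND6 panel shows overlapping groups.

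Summed over each complex, the 7 complex I genes had 0.840, 0.726 and 0.661 counts per complex IV count in the MTA1 libraries and 0.639, 0.597 and 0.593 in the Ctrl libraries. The groups did not overlap, although MTA1_3 and Ctrl_1 lay close together, and the mean log2 difference of 0.28 gave the smallest p the exact permutation test allows (0.1, 2-sided). From summed FPKM the difference was 0.20 (exact permutation p = 0.2), and the groups then overlapped. With MT-ND6 left out, the FPKM difference was 0.24 (exact permutation p = 0.1, 2-sided). The groups then did not overlap, although MTA1_3 (-0.50) and Ctrl_1 (-0.55) again lay close together in log2 ratio. All 10 members together took 4.74%, 4.58% and 4.26% of counts in the MTA1 libraries and 3.36%, 3.47% and 3.15% in the Ctrl libraries, a difference of 1.20 percentage points (exact permutation p = 0.1, 2-sided).

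Levels between genes were compared per length, as FPKM means over 3 libraries. In the MTA1 libraries MT-CO1 was first with 8086 ± 209 FPKM (SD), followed by MT-CO2 (7275 FPKM), MT-CO3 (7042 FPKM), MT-ND1 (6390.5 FPKM), MT-ND2 (3884 FPKM), MT-ND3 (3468 FPKM), MT-ND4 (3049 FPKM), MT-ND6 (1344 FPKM), MT-ND5 (379.6 FPKM) and MT-ND4L (324 FPKM). The Ctrl libraries gave MT-CO2 the first place with 7337 ± 545 FPKM (SD), followed by MT-CO1 (6154 FPKM), MT-CO3 (4815 FPKM), MT-ND1 (4046 FPKM), MT-ND3 (3453 FPKM), MT-ND2 (2375 FPKM), MT-ND4 (1749 FPKM), MT-ND6 (1221 FPKM), MT-ND5 (275.7 FPKM) and MT-ND4L (201 FPKM). The orders differ in that MT-CO1 and MT-CO2 exchange places, as do MT-ND2 and MT-ND3. In the MTA1 libraries the ranges of MT-CO2 and MT-CO3, MT-CO3 and MT-ND1, MT-ND2 and MT-ND3, MT-ND3 and MT-ND4, and MT-ND5 and MT-ND4L overlapped, so the order within those pairs is not settled. In the Ctrl libraries no neighbours overlapped. The highest gene stood 25.0 times above the lowest in the MTA1 libraries and 36.5 times in the Ctrl libraries. Both spans rest on MT-ND4L, which shares an mRNA with MT-ND4 yet had 324 against 3049 FPKM in the MTA1 libraries and 201 against 1749 FPKM in the Ctrl libraries. These FPKM cannot both give the level of the shared mRNA, so the last place and the spans are uncertain. The reason for the gap was not tested.

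Several of these reading frames stop without a full stop codon, which the poly(A) tail then completes. The last 30 bases are shown for 2 genes that rose strongly and for the 3 that did not pass, with the last codon or what remains of it in capitals:
MT-ND4, chrM:12108-12137, plus strand: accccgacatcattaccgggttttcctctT
MT-ND2, chrM:5482-5511, plus strand: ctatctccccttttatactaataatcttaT
MT-CO2, chrM:8240-8269, plus strand: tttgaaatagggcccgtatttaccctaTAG
MT-ND3, chrM:10375-10404, plus strand: gactacaaaaaggattagactgaaccgaaT
MT-ND6, chrM:14149-14178, minus strand: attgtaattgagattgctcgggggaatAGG
Of the 10 members, 5 end in an incomplete codon and their log2 fold changes ranged between -0.06 and 0.74. The other 5 end in a full codon and ranged between -0.08 and 0.62. Both kinds of ending were thus found among genes that rose and genes that did not pass.

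The nuclear genome holds old copies of mitochondrial DNA, and reads from a member could be assigned to a copy or the reverse. Copies listed in the count table took between 0% and 0.53% of the counts of their member, and adding them to the members left the number called at 7. The top share was that of MTND2P28, a copy of MT-ND2 on chromosome 1, with 804, 765 and 827 counts in the MTA1 libraries and 419, 440 and 399 counts in the Ctrl libraries. Like MT-ND2, it was higher in every MTA1 library than in every Ctrl library. Its sequence is 98.4% identical to MT-ND2, and bases 430 to 489 of MT-ND2 are shown against it because they hold 4 of the 17 differences, in capitals:
MT-ND2, chrM:4899-4958, plus strand: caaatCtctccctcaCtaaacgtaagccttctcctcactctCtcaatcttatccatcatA
MTND2P28: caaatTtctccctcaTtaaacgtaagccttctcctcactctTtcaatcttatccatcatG
Elsewhere the genes are identical over longer stretches: 15.7% of the 150-base windows of MT-ND2, 14.5% of those of MT-CO1 and 1.12% of those of MT-ND1 occur unchanged in a listed copy, whereas none of the other members had such a window. MT-ND3 and MT-ND4L had no identical window even at 50 bases.

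The 5 other mitochondrial rRNA and mRNA genes were also higher in the MTA1 libraries. MT-ATP8 rose by 0.74 ± 0.082 on the log2 scale (SE, edgeR adjusted p = 2.1e-07) and MT-ATP6 by 0.49 ± 0.074 (adjusted p = 1.1e-05), both subunits of the ATP synthase whose reading frames share 46 bases. A nuclear copy of MT-ATP6, MTATP6P1, held 38.4% as many counts as MT-ATP6 itself, and with the nuclear copies added to it the log2 fold change of MT-ATP6 was 0.46 ± 0.074 (edgeR adjusted p = 2.0e-05). The rRNAs rose by 0.29 ± 0.046 for MT-RNR1 (edgeR adjusted p = 2.1e-05) and 0.28 ± 0.045 for MT-RNR2 (adjusted p = 2.6e-05). MT-CYB, the mitochondrially encoded subunit of complex III, rose by 0.22 ± 0.060 (edgeR adjusted p = 0.0031), with DESeq2 giving an adjusted p of 0.057 and with libraries MTA1_3 and Ctrl_2 nearly equal at 954.7 and 955.1 CPM.

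The nuclear genes that copy, transcribe and process mitochondrial DNA showed no common direction. Of 9 transcription genes, 3 were higher and 4 lower, with a median log2 fold change of -0.16. Calls in either direction covered 77.8% of this list, against 58.1% of all tested genes (29.5% higher and 28.6% lower). MTERF1, which can end transcription downstream of the rRNA genes, had 10.8 ± 0.84 CPM in the MTA1 libraries and 14.7 ± 1.4 CPM in the Ctrl libraries (SD), a log2 fold change of -0.44 ± 0.080 (SE, edgeR adjusted p = 8.2e-05). MTERF2 (-0.29) and MTERF4 (-0.22), which acts in assembly of the mitochondrial ribosome, were also lower, and MTERF3, a repressor of mitochondrial transcription in mouse, was higher (0.28 ± 0.056, edgeR adjusted p = 2.3e-04). The core machinery was looked at after its values were seen: the packaging and promoter factor TFAM was lower (-0.20 ± 0.064, edgeR adjusted p = 0.0095), the initiation factor TFB2M was higher (0.14 ± 0.045, edgeR adjusted p = 0.011), and the RNA polymerase POLRMT (0.10) and the elongation factor TEFM (-0.16) did not pass.

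Of 15 genes of mitochondrial DNA maintenance, 5 were higher and 6 lower, with a median of -0.01. The share called was 73.3%, against 58.1% of all tested genes. POLG, the catalytic subunit of the mitochondrial DNA polymerase, had 120.8 ± 3.9 CPM in the MTA1 libraries and 79.8 ± 3.8 CPM in the Ctrl libraries (SD), a log2 fold change of 0.60 ± 0.045 (SE, edgeR adjusted p = 7.4e-10). The mitochondrial topoisomerase TOP1MT was lower (-0.50 ± 0.038, edgeR adjusted p = 9.0e-10), as were DGUOK (-0.20) and RRM2B (-0.24), which supply deoxynucleotides.

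Of 20 genes of mitochondrial RNA processing, polyadenylation, stability and decay, 8 were higher and 4 lower, with a median of 0.04. The share called, 60%, was close to the 58.1% of all tested genes. PNPT1, the exoribonuclease of the mitochondrial degradosome, had 42.9 ± 2.3 CPM in the MTA1 libraries and 26.7 ± 0.93 CPM in the Ctrl libraries (SD), a log2 fold change of 0.69 ± 0.054 (SE, edgeR adjusted p = 1.5e-09). PRORP, the catalytic subunit of the RNase P that cuts tRNA 5′ ends, was higher (0.60 ± 0.054, edgeR adjusted p = 9.7e-09), as was FASTK (0.36 ± 0.056, edgeR adjusted p = 1.3e-05), whose mitochondrial isoform is needed for MT-ND6 mRNA. REXO2, which degrades very short RNAs, was lower (-0.33 ± 0.043, edgeR adjusted p = 1.7e-06). LRPPRC and SLIRP, looked at after their values were seen, form a complex that protects heavy-strand mRNAs. They moved apart, with LRPPRC higher (0.16 ± 0.040, edgeR adjusted p = 0.0021) and SLIRP lower (-0.22 ± 0.038, edgeR adjusted p = 4.4e-05).

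Of 13 translation factors tested out of 14, 4 were higher and 3 lower, with a median of 0.05. The share called, 53.8%, was below the 58.1% of all tested genes. The elongation factor GFM1 had 66.4 ± 2.6 CPM in the MTA1 libraries and 35.2 ± 0.83 CPM in the Ctrl libraries (SD), a log2 fold change of 0.92 ± 0.048 (SE, edgeR adjusted p = 3.4e-12). The recycling factor GFM2 (0.39) and the elongation factor TUFM (0.21) were also higher, and the initiation factor MTIF3 was lower (-0.46).

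The nuclear partners of the members were mostly lower. Of 19 complex I assembly factors, 2 were higher and 13 lower (median -0.23), among them ECSIT (-0.52), NDUFAF6 (-0.49) and NDUFAF2 (-0.47), with ACAD9 higher (0.38). Of 23 complex IV assembly factors tested out of 24, 4 were higher and 16 lower (median -0.33), among them COA5 (-0.73), COA6 (-0.67) and COA8 (-0.64), with COX15, an enzyme of haem A synthesis, higher (0.42). Of 36 nuclear complex I subunits tested out of 37, 4 were higher and 23 lower (median -0.29). Those with the smallest p were NDUFB1 (-0.89), NDUFS5 (-0.59) and NDUFS6 (-0.59), with NDUFB5 higher (0.19). All 11 nuclear complex IV subunits tested out of 12 were lower (median -0.46), with COX6C at -0.84, COX7C at -0.63 and COX4I1 at -0.46. All genes named in this paragraph passed the edgeR threshold. The share of all tested genes called lower, 28.6%, is the figure against which these counts stand. Over all 8 nuclear lists, 30 genes were higher and 80 lower, against 37 and 66 with library size as the sole scaling and 31 and 54 on log2(FPKM + 0.1) values.

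**Figure D4:**
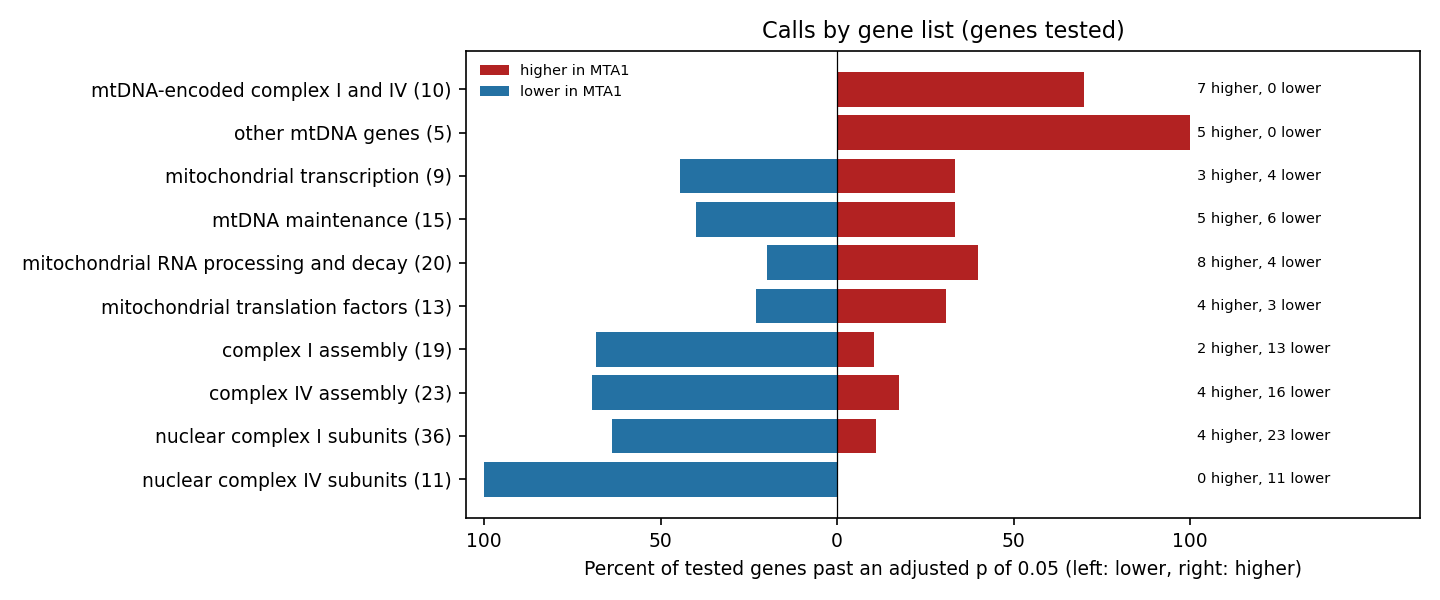
Percent of the tested genes of each list called higher (red, right) or lower (blue, left) in the MTA1 libraries against the Ctrl libraries at an edgeR adjusted p under 0.05, with the number tested after each name. Both mitochondrially encoded lists have calls on the higher side alone (7 and 5 genes), whereas the nuclear subunits and assembly factors of complexes I and IV lean to the lower side.

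Among 7413 genes at a mean of 10 CPM or more, the nuclear genes whose pattern over the 6 libraries lay nearest to the summed level of the 10 members were PGRMC2, GINM1, RNASEK, GGCX and CRIM1, with root mean square differences of 0.022, 0.023, 0.023, 0.027 and 0.028 in log2 CPM after centring. The summed level was 46506, 44710 and 41517 CPM in the MTA1 libraries and 34487, 35331 and 32454 CPM in the Ctrl libraries. PGRMC2, a haem-binding membrane protein, had 50.6, 48.2 and 45.1 CPM in the MTA1 libraries and 36.7, 36.8 and 35.2 CPM in the Ctrl libraries. GGCX, the vitamin K-dependent carboxylase, had 39.3, 38.9 and 35.7 CPM in the MTA1 libraries and 30.5, 30.9 and 29.1 CPM in the Ctrl libraries. In each of these patterns library MTA1_3 was the lowest of the MTA1 libraries and Ctrl_3 the lowest of the Ctrl libraries. These genes were selected for their likeness out of many, over 6 libraries, and no test was made.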

How the data were processed

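Total RNA of 3 MTA1 and 3 Ctrl samples was sequenced as stranded libraries with paired reads, per the labels. The authors deposited whole-number counts per gene, not normalized, and FPKM values, which the authors had scaled for depth and gene length. Columns named shMTA1 were matched to MTA1 by name and columns named NC to Ctrl by elimination. No aligner, counter, strand setting or build is given in the sources used here. DESeq2 is named, with no version, by the submitters' processing notes. Positions and sequences come from GENCODE v29 (GRCh38), whose mitochondrial gene identifiers match the files.

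Counts were fitted with edgeR 4.0.16 (TMM factors, low counts filtered by filterByExpr, quasi-likelihood F test, group as the sole term) in R 4.3.3, with Benjamini-Hochberg adjustment over the 15423 genes tested and a threshold of 0.05. A second fit used the summed counts of the 13 mitochondrial mRNAs as library size. SEs were taken from the F statistic. Ratios were tested over libraries with exact permutation tests. The script was tested on simulated data. Alternatives were other scalings and filters, DESeq2 1.42.0, limma 3.58.1 on counts and on log2(FPKM + 0.1) or log2(FPKM + 1), nuclear copies added, and leaving out each library. Nuclear copies were aligned with Biopython 1.88.

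Total counts of 29909172 to 33849262 leave counting error small for every member, so precision is set by the spread between libraries. The biological coefficient of variation was 4.45% as a common value over all tested genes. In the MTA1 libraries the members' own coefficients of variation ran from 2.27% for MT-CO1 to 26.2% for MT-ND6. No libraries agreed within counting noise. The members, lists and markers were chosen with earlier results of these data known. Genes named from the nuclear lists are those with the smallest p, up to 3 in the direction of most calls and up to 1 in the other. Nearest genes are the 5 with the smallest root mean square difference, and the nuclear copy named for a member is the one with the most counts.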

Additional observations from a re-analysis of the deposited data

How the results depend on the processing

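The count of 7 members higher was the same under all 18 alternatives. Relative to the mitochondrial mRNAs, the 7 members called became 4 to 7 with a library left out (4 without Ctrl_1). Signs turned in values that had not passed: MT-ND3 (0.0073 with library size only, 0.0019 with either FPKM pseudocount, -0.11 to 0.023 with a library left out), MT-ND6 (-0.13 to 0.25 with a library left out) and, relative to the mRNAs, MT-ND5 (-0.032 to 0.041) and MT-CO1 (-0.11 to 0.0071) in the same way. The cause was not tested. With a library left out, the MT-ND6 to heavy-strand difference lay between -0.55 and -0.15, the complex I to IV difference between 0.18 and 0.36, and the members' share difference between 1.09 and 1.33 points. The 8 nuclear lists had 110 calls, and between 100 and 106 with a library left out, 103 with library size only (37 higher, 66 lower), 85 on log2(FPKM + 0.1) values (31 higher, 54 lower) and 93 on log2(FPKM + 1) values (33 higher, 60 lower). The deviations of same-numbered libraries of the groups were hardly correlated (0.094, -0.034 and 0.023). Library 3 was nevertheless the lowest of its group for 9 of the 10 members in both groups, and what the number stands for is not given. A fit with the replicate number as a block called 7 members, 7 relative to the mRNAs and 115 list genes, and 9139 genes in all against 8954. Sign-flip tests over the 3 numbered pairs gave p = 0.5 for the MT-ND6 ratio and 0.25, the smallest they allow, for the complex ratio and the share (exact permutation). Library size only raised the share of higher calls among all called genes to 60.1%, against 50.8%. With high counts for every member, the spread between 3 libraries a group limits what smaller differences can show.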
